A study of Mus musculus with 12 samples.

Results

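The protocadherins were examined in mRNA-seq of cultured mouse cortical endothelial cells (ECs), the cells that line brain vessels and form the blood-brain barrier. Members were chosen by gene symbol alone: Pcdh, an optional cluster letter, an optional subfamily letter and a number, which took 67 of the 21611 genes in the table. Of these, 56 lie in the clusters on chromosome 18, with 13 alpha, 22 beta and 21 gamma genes, and 11 are non-clustered. The relative Pcdh11x has a symbol of another form and was left out of the members.

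All libraries came from primary ECs of the cortex, from C57BL/6J mice by the methods, grown on collagen to passage 2. There were 4 groups: ECs of embryos at E13.5, an age in days of gestation (3 libraries), untreated adult ECs (adult control, 3 libraries), adult ECs given 200 nM Wnt3a (2 libraries) and adult ECs given 10 uM MS-275, an inhibitor of class I histone deacetylases (4 libraries). The adults were males of 2 to 3 months by the methods, the treatments lasted 48 hr, and the ECs pooled from 1 litter counted as 1 replicate. The labels give Wnt3a in nM and the methods in ng/ml, and the methods count 2 MS-275 replicates where 4 libraries are labelled as such.

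Protocadherins are the largest family of cadherin-type adhesion proteins and are best known in neurons. In the clustered genes, each variable exon has a promoter of its own, and CTCF and cohesin loop an enhancer to the chosen promoter. Alpha and gamma transcripts splice the variable exon to constant exons that the whole cluster shares, whereas each beta gene is a lone exon. In neurons these isoforms form recognition complexes by which a cell tells its own branches from those of others. The non-clustered genes are spread over the genome and act in adhesion and cell sorting, and Pcdh12 is an endothelial member found at EC junctions.

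Read totals on genes ran from 20804279 to 33149580 per library. A gene entered the test when 2 or more libraries reached a normalized count of 10, which left 15452 genes and among them 65 of the 67 protocadherins. Pcdhb1 had no read in any library and Pcdhb10 stayed below that limit. The E13.5 cultures were poor in endothelial transcripts: the summed normalized count of 10 endothelial markers was 819 to 1202 at E13.5, 258878 to 342643 in adult control, 218655 to 257276 with Wnt3a and 18794 to 35347 with MS-275. The summed smooth muscle markers were 30950 to 50554 at E13.5 against 83.3 to 87.8 in adult control, the neuronal markers 10583 to 13227 against 8.67 to 16.3, the pericyte markers 2306 to 3308 against 4.34 to 28.6, and the fibroblast markers 5273 to 15211 against 156 to 258. Astrocyte markers summed to 2604 to 3330 against 4.07 to 85.8, and oligodendrocyte-lineage markers to 5154 to 8187 against 154 to 272. The 10 neural progenitor markers summed to 137824 to 143940 at E13.5 and 110840 to 153644 in adult control, although Sox2, Fabp7, Hes5, Sox1, Slc1a3 and Ptprz1 had no read in adult control. The adult control sum rested on few genes, since 3 of the 10 reached a mean of 10 there. Of the 10, 8 were called lower in adult control than at E13.5 and none higher. With MS-275 the neuronal markers summed to 668 to 744. Their part in the results was not tested, and in these bulk libraries fewer cells of a type and less RNA per cell cannot be told apart. Libraries also fell into 2 sets by the first principal component of their deviations from the group means, which took 46.1% of the variance, a split made after seeing the data. E13.5 library 1, adult control 1 and 2, Wnt3a 1 and MS-275 1 and 3 were in set 1 and the rest in set 2, with the E13.5 libraries near 0 on this component.

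Compared to E13.5, most tested protocadherin genes were lower in adult control ECs, many of them alpha and gamma genes that share reads. Of the 65 tested, 47 were lower and 11 higher, which is 89.2% called, against 52.3% of all genes tested, of which 19.5% were higher and 32.8% lower. All 13 alpha genes, all 21 gamma genes and 9 of 11 non-clustered genes were lower, whereas 9 of 20 tested beta genes were higher and 4 lower. The median log2 fold change was -6.74 for alpha, 0.20 for beta, -1.12 for gamma and -3.11 for non-clustered genes, beside -0.20 for all genes tested. A log2 fold change here is the difference between group means of log2(normalized count + 1), which understates changes of low genes, and a call is an adjusted p under 0.05 in limma over all genes tested. Under quantile normalization 53.1% of the calls over all genes were higher instead of 37.3%. The protocadherin calls were then 13 higher and 40 lower, and Pcdh15, Pcdh19, Pcdh20, Pcdhb2, Pcdhb3, Pcdhb4 and Pcdhb8 no longer passed. Reads of the alpha and gamma genes are shared within their clusters, as described after the beta genes, so the counts of those genes are not independent of each other. With 1 value each for the alpha and gamma clusters, 26 of 33 tested values were called, 11 higher and 15 lower. In that fit 52.1% of all genes were called.

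With MS-275, compared to adult control, 33 of the 65 tested protocadherins were lower and 3 higher. The 55.4% called was close to the 53.0% of all genes, but among all genes 30.3% were higher and 22.7% lower. All 21 gamma genes and 10 beta genes were lower, no alpha gene passed, and the 11 non-clustered genes gave 2 higher, 2 lower and 7 not called. With the library set as a block 7 non-clustered genes were called, since Pcdh10 and Pcdh19 were then also higher and Pcdh17 lower. The sets were drawn from the deviations of these same libraries, so these added calls are not separate support. With this block 60.1% of all genes were called. The median log2 fold change was 1.27 for alpha, -1.06 for beta, -2.40 for gamma and 0.19 for non-clustered genes, the last equal to the 0.19 of all genes tested. These and the E13.5 comparison share the adult control libraries. With 1 value each for the alpha and gamma clusters, 16 of 33 tested values were called with MS-275, 3 higher and 13 lower. This share was below the 53.0% of all genes called in that fit.

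**Figure D1:**
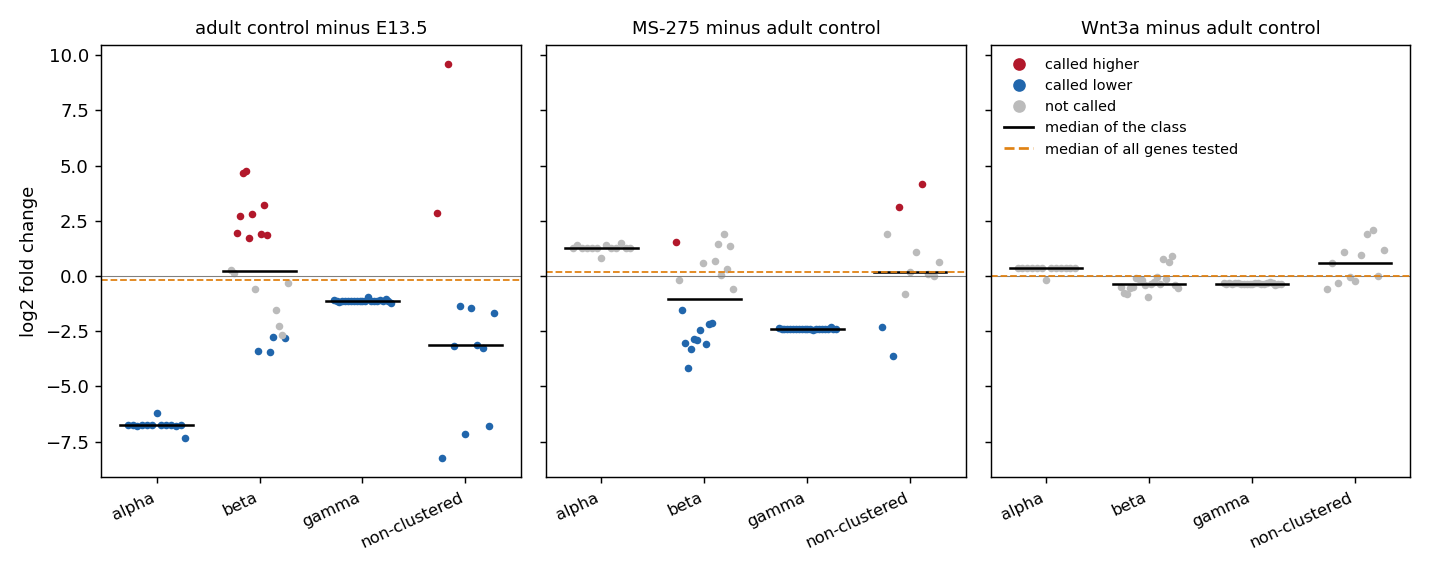
Log2 fold change of each tested protocadherin by class in 3 comparisons, coloured by its call in limma, with the median of each class as a black line and that of all genes tested as a dashed line. The gamma genes lie on nearly 1 value in each panel (medians -1.12, -2.40 and -0.34), while the beta and non-clustered genes spread over both signs.

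The non-clustered genes were counted without shared exons and came first. Pcdh1, an adhesion protein of endothelium and airway epithelium, lies on chromosome 18 (38185914 to 38212053, minus strand, mm10) beyond the gamma cluster. Its normalized count was 1190.3, 1511 and 1609.8 in the E13.5 libraries, 11886, 12996 and 7102 in adult control, 7271 and 6624 with Wnt3a, and 2365, 1819.7, 2080.1 and 1968 with MS-275. Every adult control library stood above all E13.5 and MS-275 libraries. The log2 fold change was 2.85 ± 0.22 (SE, adjusted p 9.96e-07) for adult control over E13.5 and -2.33 ± 0.21 (adjusted p 8.07e-06) for MS-275 over adult control.

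Pcdh12, also called VE-cadherin-2, is carried by ECs at their junctions and lies next to Pcdh1 on chromosome 18 (38267089 to 38284402, minus strand). It was counted at 1.59, 0 and 3.82 at E13.5 and at 1839.9, 2048 and 1509 in adult control. With Wnt3a the counts were 1271 and 1582, and with MS-275 they were 705, 49.2, 264 and 42.9. The adult control libraries did not overlap either group, and the MS-275 libraries differed widely, with the lower pair in set 2. For Pcdh12 the log2 fold change was 9.59 ± 0.94 (adjusted p 6.78e-06) for adult control over E13.5 and -3.65 ± 0.88 (adjusted p 0.00499) for MS-275 over adult control. These were the only non-clustered genes higher in adult control than at E13.5, and the only non-clustered genes that were lower with MS-275. Both moved in the same direction as the endothelial markers, of which 10 of 10 were higher in adult control than at E13.5 and 9 of 10 lower with MS-275, and the part of EC content in this was not tested.

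Pcdh20 lies on chromosome 14 (88464743 to 88471396, minus strand). Its counts were 251, 111 and 66.8 at E13.5, 24.3, 8.13 and 11.8 in adult control, 161 and 16.7 with Wnt3a, and 304, 273, 302 and 179 with MS-275. The adult control libraries were the low ones, below every E13.5 and every MS-275 library, and the Wnt3a libraries disagreed with each other. The log2 fold change was -3.11 ± 0.75 (adjusted p 0.00466) for adult control over E13.5 and 4.18 ± 0.70 (adjusted p 0.000513) for MS-275 over adult control, the largest rise of any protocadherin in that comparison. Between MS-275 and E13.5 the difference was 1.07 ± 0.70 (adjusted p 0.205).

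Pcdh8, known for its part in forming the paraxial mesoderm and at synapses, is a gene of 1 exon block on chromosome 14 (79766775 to 79771312, minus strand). It was counted at 103, 113 and 116 at E13.5 and had no read in any of the 9 adult libraries. E13.5 was thus at least 116-fold higher than adult control and at least 152-fold higher than MS-275, with a floor of 3 reads over each group.

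Pcdh20 and Pcdh8 are shown by their promoters because adult control ECs held few reads of the former and none of the latter, and MS-275 libraries held many of the former and again none of the latter. Each window is the 250 bases before the RefSeq start site (GRCm38.p6), read along the gene, with CpG dinucleotides in capitals.
Pcdh20, chr14:88471397-88471646, minus strand: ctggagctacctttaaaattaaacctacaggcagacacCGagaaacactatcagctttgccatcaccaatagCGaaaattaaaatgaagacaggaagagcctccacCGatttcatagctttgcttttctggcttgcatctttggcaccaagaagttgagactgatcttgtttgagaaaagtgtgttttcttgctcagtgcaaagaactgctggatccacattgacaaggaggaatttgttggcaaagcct
Pcdh8, chr14:79771313-79771562, minus strand: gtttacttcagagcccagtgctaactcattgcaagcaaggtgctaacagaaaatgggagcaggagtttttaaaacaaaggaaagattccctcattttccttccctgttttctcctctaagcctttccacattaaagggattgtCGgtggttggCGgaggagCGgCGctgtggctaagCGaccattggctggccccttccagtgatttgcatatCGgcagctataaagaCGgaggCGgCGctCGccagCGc
The Pcdh20 window held 3 CpG and was 42.4% G or C, and the Pcdh8 window held 11 CpG and was 51.2% G or C, beside a median of 6 CpG over the 32851 windows of the table. CGCT, the core letters of the conserved element in clustered protocadherin promoters, or AGCG on the other strand occurred 1 time in the Pcdh20 window and 5 times in the Pcdh8 window. One or the other string occurred in 55.7% of all windows, so the matches are a description only. The table held promoters of 9 of the 67 members.

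Pcdh15, which forms the tip links of hair cells in the inner ear, was the other non-clustered gene that rose with MS-275. Its few reads gave 15.9, 11.3 and 9.54 at E13.5, 0, 2.03 and 0 in adult control, 8.34 and 0 with Wnt3a, and 8.53, 16.4, 13.0 and 10.1 with MS-275. All MS-275 libraries lay above adult control and overlapped the E13.5 range. Its log2 fold changes were -3.16 ± 0.75 (adjusted p 0.00429) for adult control over E13.5 and 3.13 ± 0.70 (adjusted p 0.00325) for MS-275 over adult control.

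Pcdh10, which binds the WAVE complex and is required for axon growth in the mouse forebrain, had 551, 871 and 918 at E13.5. It fell to 1.73, 1.02 and 1.97 in adult control, and stood at 13.9 and 0 with Wnt3a and 13.6, 10.9, 6.49 and 5.05 with MS-275. The MS-275 libraries were all above adult control but remained far below E13.5. The log2 fold change was -8.23 ± 0.80 (adjusted p 6.43e-06) for adult control over E13.5, and the value for MS-275 over adult control, 1.89 ± 0.75, missed the threshold (adjusted p 0.0531). It was called higher with the library set as a block (1.98, adjusted p 0.0395), in edgeR (adjusted p 0.037) and DESeq2 (adjusted p 0.00692) and without Wnt3a 2 (adjusted p 0.00277), whereas under quantile normalization the value was 0.25 (adjusted p 0.841).

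Pcdh18, a protocadherin whose tail binds Dab1, behaved like Pcdh10 across age. Counts of 751, 567 and 491 at E13.5 compare with 0, 2.03 and 23.7 in adult control, 0 and 11.9 with Wnt3a, and 3.41, 6.56, 1.62 and 5.05 with MS-275. Adult libraries of every treatment stayed under the lowest E13.5 library. Adult control over E13.5 gave -7.14 ± 1.13 (adjusted p 0.00027) and MS-275 over adult control 0.19 ± 1.1 (adjusted p 0.903). Within set 2, with adult control 3 as the lone control, the latter was -1.87.

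Pcdh7, whose tail binds protein phosphatase 1, had a mean of 225 normalized counts per kb of exon at E13.5, where Pcdh9 had 203. Library 1 set this order, since Pcdh7 had 303, 182 and 189 per kb and Pcdh9 177, 214 and 217 in libraries 1 to 3. It was counted at 3213, 1934 and 2006 at E13.5, 158, 118 and 756 in adult control, 1189 and 875 with Wnt3a, and 274, 301, 178 and 287 with MS-275. E13.5 stood above all adult libraries, while adult control 3 of set 2 was far above controls 1 and 2. On the log2 scale the change was -3.26 ± 0.56 (adjusted p 0.000513) for adult control over E13.5 and 0.07 ± 0.52 (adjusted p 0.927) for MS-275 over adult control. Adult control 3 decided the latter: without it Pcdh7 was called higher with MS-275 (0.89, adjusted p 0.0215). Within set 2, where adult control 3 is the lone control, the log2 fold change was -1.36.

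Pcdh9, an adhesion protein of cortical neurons, had 1199, 1452 and 1475 at E13.5, 635, 582 and 217 in adult control, 2263 and 409 with Wnt3a, and 728, 687, 656 and 617 with MS-275. The fall from E13.5 to adult control was clear of overlap at -1.66 ± 0.54 (adjusted p 0.0232), and the MS-275 libraries overlapped adult control (0.64 ± 0.51, adjusted p 0.313). Pcdh17, known from synapses of corticobasal circuits, had 1055, 1619 and 1471 at E13.5, 457, 505 and 635 in adult control, 222 and 1140.1 with Wnt3a, and 175, 377, 294 and 403 with MS-275. MS-275 lay below adult control without overlap, and the Wnt3a libraries fell on either side of it. Its fold changes were -1.36 ± 0.51 (adjusted p 0.0417) for adult control over E13.5, -0.82 ± 0.47 (adjusted p 0.167) for MS-275 over adult control, and -2.19 ± 0.47 (adjusted p 0.00196) for MS-275 over E13.5. For MS-275 over adult control Pcdh17 was called lower with the library set as a block (-0.98, adjusted p 0.0231) and without Wnt3a 2 (adjusted p 0.0357).

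Pcdh19, an X-linked partner of N-cadherin mutated in a human epilepsy, had 1893, 454 and 528 at E13.5, 246, 277 and 321 in adult control, 818 and 363 with Wnt3a, and 631, 577, 654 and 545 with MS-275. E13.5 library 1 stood apart, and all treated libraries were above all controls. Adult control over E13.5 gave -1.45 ± 0.47 (adjusted p 0.0223), and MS-275 over adult control gave 1.1 ± 0.44 and was not called (adjusted p 0.0542). With the library set as a block it was called higher (1.21, adjusted p 0.0148), as it was in DESeq2 (adjusted p 0.0368) and without Wnt3a 2 (adjusted p 0.0447). The calls of Pcdh9, Pcdh17 and Pcdh19 against E13.5 were lost on leaving out any 1 of 3, 7 and 2 of the 12 libraries, with adjusted p of up to 0.0813, 0.12 and 0.066. These libraries were E13.5 2 and 3 and adult control 3 for Pcdh9, adult control 1 and 2 for Pcdh19, and E13.5 1, 2 and 3, adult control 1 and 2 and MS-275 2 and 3 for Pcdh17. Exons of Pcdh7, Pcdh8, Pcdh10 and Pcdh19 overlap genes of the opposite strand, and no source used here states whether counting used the strand, so their reads cannot be told apart from those of the partner.

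By mean level per kb, the order of the non-clustered genes changed from Pcdh7 (225), Pcdh9 (203), Pcdh1 (163), Pcdh18 (112) and Pcdh17 (106) at E13.5 to Pcdh1 (1212), Pcdh12 (297), Pcdh9 (70.5), Pcdh17 (41.0) and Pcdh7 (32.4) in adult control. Pcdh1 stayed at the top with MS-275 at 234 per kb, followed by Pcdh9 (99.1), Pcdh19 (57.5), Pcdh20 (48.2) and Pcdh12 (43.8). Neighbours such as Pcdh7 and Pcdh9 at E13.5, and Pcdh9, Pcdh17 and Pcdh7 in adult control, had overlapping libraries.

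**Figure D2:**
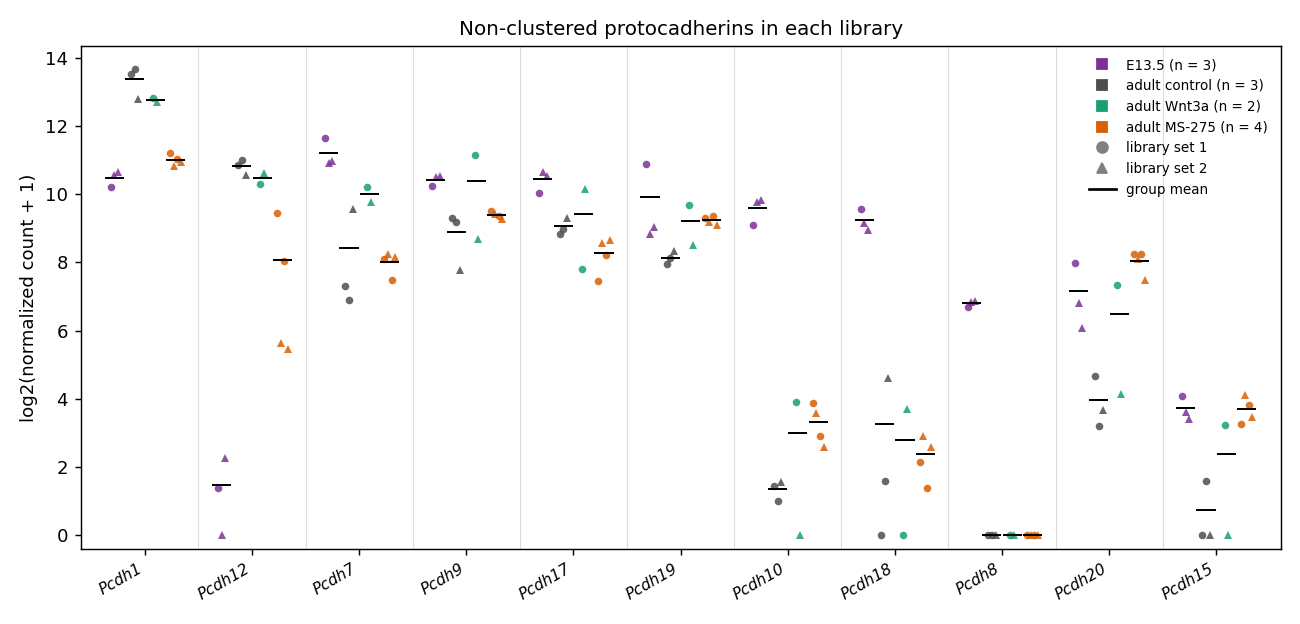
Log2(normalized count + 1) of the 11 non-clustered protocadherins in each of the 12 libraries, with the group mean as a line and the library set as a circle or a triangle. Pcdh1 and Pcdh12 are highest in adult control and Wnt3a libraries, and the mean of Pcdh20 is lowest in adult control (14.8) and highest with MS-275 (264).

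The beta genes lie in a row on chromosome 18 (37264938 to 37524479, plus strand), each of 1 exon, so their reads belong to single genes except at Pcdhb21 and Pcdhb22, whose exons overlap, and at Pcdhb12, which overlaps an antisense gene. Their summed normalized count was 690.2 to 712 at E13.5, 2739 to 3499 in adult control, 2179.7 to 3318 with Wnt3a and 345 to 757 with MS-275. Every adult control library thus had a higher sum than every E13.5 and MS-275 library. The single genes differed in direction. Compared to E13.5, Pcdhb13, Pcdhb14, Pcdhb15, Pcdhb16, Pcdhb17, Pcdhb18, Pcdhb20, Pcdhb21 and Pcdhb22 were higher in adult control and Pcdhb2, Pcdhb3, Pcdhb4 and Pcdhb8 lower. With MS-275, each of the 10 genes from Pcdhb13 to Pcdhb22 was lower than in adult control and Pcdhb11 was higher. The genes higher in adult control are thus at the end of the row near the gamma cluster, and those lower in adult control are in the first part of it. Some of these calls rest on single libraries: against E13.5, those of Pcdhb13, Pcdhb20, Pcdhb2, Pcdhb4 and Pcdhb8 (adjusted p 0.021, 0.0258, 0.0148, 0.025 and 0.0478) were lost on leaving out any 1 of 3, 4, 2, 5 and 8 libraries, each of them E13.5 or adult control libraries except for 3 of those of Pcdhb8. With MS-275 that of Pcdhb13 (adjusted p 0.0436) was lost without any 1 of the E13.5 and adult control libraries and of MS-275 1, 3 and 4.

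Pcdhb16 (37477814 to 37483038) was the beta gene with the highest mean level per kb of exon in adult ECs, at 165 normalized counts per kb in adult control, 155 with Wnt3a and 18.5 with MS-275. At E13.5 it stood at 5.70 per kb, below Pcdhb17 at 22.4, and with MS-275 Pcdhb22 had more counts than Pcdhb16 in libraries 1 and 3. Its counts were 29.4, 29.5 and 30.5 at E13.5, 724, 635 and 1221 in adult control, 565 and 1059 with Wnt3a, and 67.4, 144, 35.7 and 139 with MS-275. All 3 groups were separate, with the E13.5 libraries almost equal and adult control 3 above the other controls. The log2 fold change was 4.75 ± 0.50 (adjusted p 1.16e-05) for adult control over E13.5, -3.29 ± 0.47 (adjusted p 0.000167) for MS-275 over adult control, and 1.46 ± 0.47 (adjusted p 0.0178) for MS-275 over E13.5.

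Pcdhb15 (37473540 to 37476340) had the largest fall with MS-275 among the beta genes. It was counted at 14.3, 5.20 and 13.4 at E13.5, 226, 221 and 462 in adult control, 91.7 and 433 with Wnt3a, and 17.1, 13.1, 8.11 and 25.3 with MS-275. The MS-275 libraries overlapped those of E13.5 and lay far below adult control. Its log2 fold changes were 4.69 ± 0.63 (adjusted p 8.17e-05) for adult control over E13.5, -4.18 ± 0.59 (adjusted p 0.000163) for MS-275 over adult control, and 0.50 ± 0.59 (adjusted p 0.479) for MS-275 over E13.5.

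For Pcdhb18 the libraries gave 50.1, 52.0 and 56.3 at E13.5, 399, 361 and 361 in adult control, 285 and 387 with Wnt3a, and 35.8, 52.5, 43.8 and 70.7 with MS-275. Those for Pcdhb17 gave 100.1, 103 and 109.7, then 342, 373 and 334, then 256 and 402, and with MS-275 39.2, 82.0, 19.5 and 79.5. In both genes adult control was above E13.5 and MS-275 without overlap, and for Pcdhb17 MS-275 fell below E13.5 as well. The fold changes of Pcdhb18 were 2.80 ± 0.28 (adjusted p 7.02e-06) for adult control over E13.5 and -2.90 ± 0.26 (adjusted p 8.71e-06) for MS-275 over adult control. Those of Pcdhb17 were 1.73 ± 0.47 (adjusted p 0.0088) and -2.85 ± 0.44 (adjusted p 0.000279).

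Pcdhb19 differed from its neighbours in having no higher level in adult control. Its counts were 116, 107 and 114 at E13.5, 62.5, 82.3 and 80.8 in adult control, 30.6 and 99.1 with Wnt3a, and 3.41, 41.5, 6.49 and 25.3 with MS-275. Adult control lay under E13.5, and the change of -0.58 ± 0.76 did not pass (adjusted p 0.554). MS-275 was lower still, by -2.45 ± 0.71 (adjusted p 0.0136) against adult control and by -3.03 ± 0.71 (adjusted p 0.00326) against E13.5.

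At the other end of the row, Pcdhb3 (37300799 to 37304585) was counted at 27.0, 18.2 and 30.5 at E13.5, 0.867, 0 and 5.92 in adult control, 0 and 2.39 with Wnt3a, and 0, 6.56, 3.24 and 5.05 with MS-275. All adult libraries were below all E13.5 libraries, at -3.45 ± 0.88 (adjusted p 0.00659) for adult control. Pcdhb11, the beta gene that rose with MS-275, had 4.77, 10.4 and 11.5 at E13.5, 6.94, 8.13 and 19.7 in adult control, 2.78 and 16.7 with Wnt3a, and 23, 37.2, 30.8 and 40.4 with MS-275. All MS-275 libraries were above all others, and the change was 1.53 ± 0.58 (adjusted p 0.0428). This call was lost on leaving out any 1 of E13.5 2 and 3, adult control 1 and 2 and MS-275 2, 3 and 4, with adjusted p of up to 0.149, and under quantile normalization (adjusted p 0.54). Scaling also moved the class: under quantile normalization the median beta log2 fold change for adult control over E13.5 was 2.77 in place of 0.20.

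**Figure D3:**
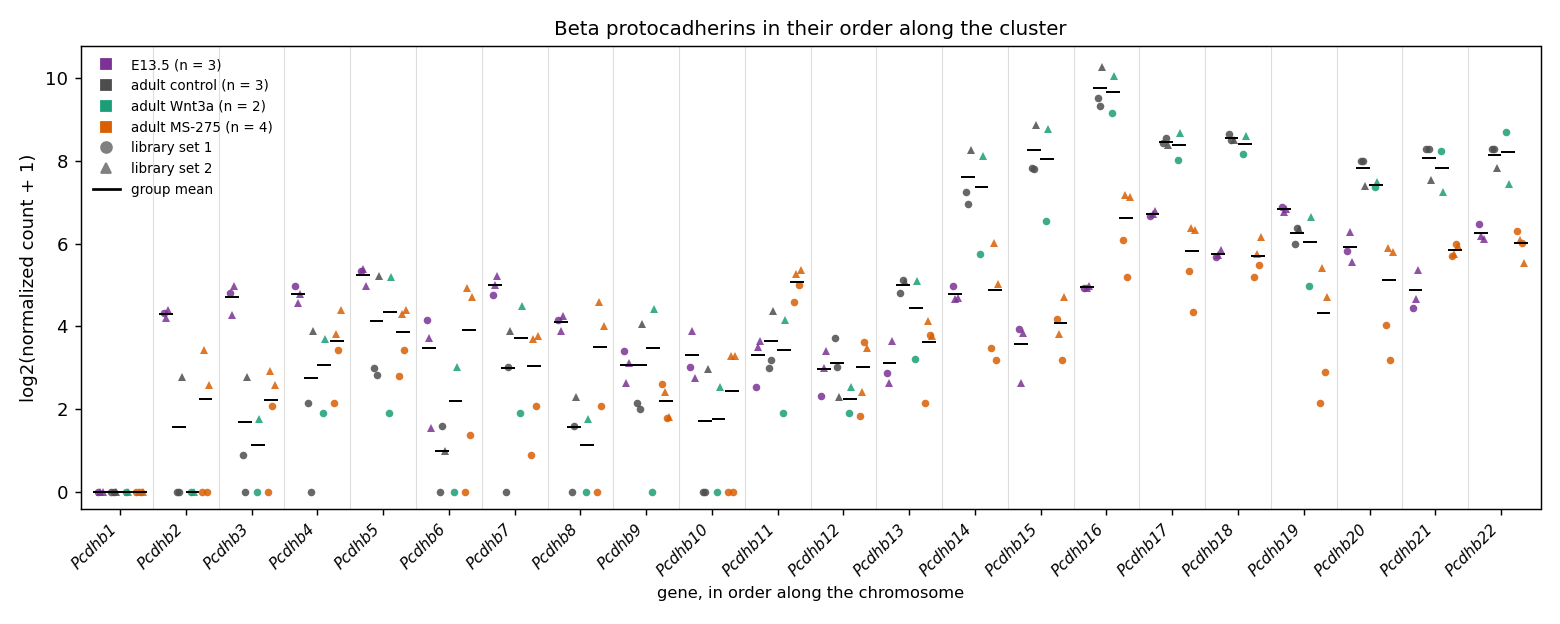
Log2(normalized count + 1) of the 22 beta protocadherins in the order of their positions, in each library, with group means as lines. From Pcdhb14 to Pcdhb18 and from Pcdhb20 to Pcdhb22 every adult control library lies above those of E13.5 and MS-275, whereas from Pcdhb2 to Pcdhb4 the E13.5 means are highest.

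The alpha and gamma values hold a level common to each cluster. Alpha genes share 3 constant exon blocks of 2860 bases and gamma genes 3 others of 2116 bases, and in each library the values of a cluster piled up at its lowest gene. At E13.5, 12 of 13 alpha genes lay within 10% of the lowest, and 17 to 20 of 21 gamma genes did so in each of the 12 libraries. This is what results when reads of shared exons are counted for every gene, so the 34 alpha and gamma calls rest largely on 2 measurements. Per kb, the shared gamma exons held 4135 normalized counts at E13.5, where the exons of the single genes summed to 2984, a ratio of 1.39, and the ratio was 1.4 in adult control, 1.31 with Wnt3a and 1.29 with MS-275. All 21 gamma genes and 5 alpha genes also overlap exons of other annotated genes, such as readthrough transcripts and, for some, antisense genes. The name Pcdha11 is carried by 2 gene IDs.

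The gamma cluster (chromosome 18, 37661793 to 37841873) was the most abundant of the clusters. Its lowest gene stood at 8796, 8480.1 and 8973 at E13.5, 4848, 4916 and 2775 in adult control, 3693 and 2754 with Wnt3a, and 1006, 632, 847 and 633 with MS-275. The groups E13.5, adult control and MS-275 were fully separate in that order. Taken as 1 value for the cluster, the log2 fold change was -1.11 ± 0.25 (adjusted p 0.00305) for adult control over E13.5, -2.40 ± 0.23 (adjusted p 1.47e-05) for MS-275 over adult control and -3.52 ± 0.23 (adjusted p 4.08e-07) for MS-275 over E13.5. The direction of all 21 genes in these comparisons was the same when libraries were scaled to equal totals or quantile normalized and in edgeR and DESeq2. Since their deposited values hold the same shared reads, this is largely 1 measurement and does not show the direction of single genes.

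The alpha cluster (36930184 to 37187661) was close to unread in adult ECs. Its lowest gene stood at 106, 179 and 182 at E13.5, 0, 0 and 1.97 in adult control, 0 and 2.39 with Wnt3a, and 3.41, 4.37, 0 and 5.05 with MS-275. E13.5 was above all adult libraries by a wide margin, and among the adult libraries values of 0 and of a few reads mixed. As 1 value the change was -6.72 ± 0.77 (adjusted p 2.22e-05) for adult control over E13.5 and 1.27 ± 0.72 (adjusted p 0.16) for MS-275 over adult control. Without MS-275 library 3, which has no alpha read, 12 alpha genes were called higher with MS-275, by 1.86 to 2.15 on the log2 scale, which is 1 measurement counted for each gene. Above the common level, Pcdhac2, the last alpha gene, which guides serotonergic axons in mice, held 71.5, 77.2 and 80.2 at E13.5 and nothing in any adult library.

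**Figure D4:**
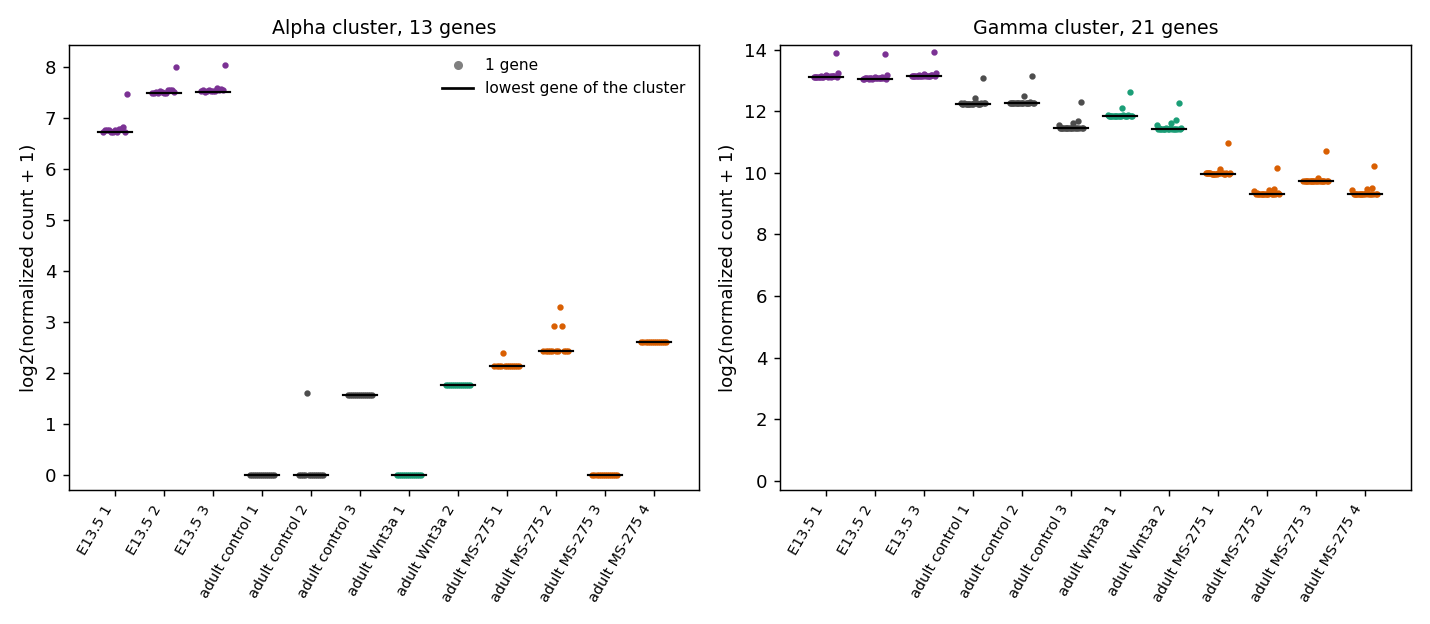
Log2(normalized count + 1) of every alpha gene (left) and gamma gene (right) in each library, with the lowest gene of the cluster as a line. Most genes lie on the line of their library, and the gamma line falls from 8480.1 to 8973 normalized counts at E13.5 to 632 to 1006 with MS-275.

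To see the reads of single gamma genes, the lowest gamma value of each library was subtracted, a step chosen after seeing the data. Pcdhgc3, a C-type isoform that binds Axin1 and is expressed beyond neurons, then led in all 12 libraries. It held 6447, 6498 and 6614 normalized counts above the common level at E13.5, 3809.9, 4101 and 2204 in adult control, 2659 and 2144 with Wnt3a, and 995, 515, 825 and 561 with MS-275. The groups E13.5, adult control and MS-275 were again separate. The levels of the gamma genes above the common level were also summed per kb of own exon. Of this sum, which leaves the common level out, Pcdhgc3 took 62.1% to 66.9% at E13.5 and 58.4% to 75.0% in adult control. It took 53.9% to 68.4% with Wnt3a and 61.6% to 87.7% with MS-275. Above the common level the log2 fold change was -1.0 ± 0.28 for adult control over E13.5 (adjusted p 0.0112) and -2.22 ± 0.26 for MS-275 over adult control (adjusted p 5.14e-05). In the deposited values, where the common level is included, Pcdhgc3 had 15244, 14978 and 15586 at E13.5, 8658, 9017 and 4978 in adult control, 6352 and 4898 with Wnt3a, and 2001, 1146, 1671 and 1193 with MS-275. Exons of Pcdhgc3 overlap the antisense gene BC037039. Without the strand setting, reads of the overlap cannot be told apart from those of BC037039.

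Pcdhgb1, a variable isoform near the start of the cluster, went the other way across age. Its counts above the common level were 79.5, 96.2 and 117 at E13.5, 677, 794 and 369.7 in adult control, 693 and 405 with Wnt3a, and 96.4, 54.6, 62.4 and 74.5 with MS-275. Adult control lay above E13.5 and MS-275 with no overlap, at 2.58 ± 0.35 on the log2 scale over E13.5 (adjusted p 7.79e-05), while MS-275 was at -3.03 ± 0.32 against adult control (adjusted p 2.67e-05). In the deposited values, dominated by the common level, the same comparison with E13.5 gave -0.93 ± 0.25 (adjusted p 0.00925), with 8876, 8576 and 9090.0 at E13.5 against 5525, 5710.1 and 3144 in adult control. The sign of its age difference therefore turned with the subtraction. Pcdhgb1 and Pcdhga4 share bases outside the constant exons, so some reads above the common level may count for both. Pcdhga4 held 89.8, 98.0 and 65.8 above the common level at E13.5 and 31.2, 21.3 and 4.93 in adult control.

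Pcdhgc5, the last gamma gene, a C-type isoform of maturing neurons, held 785, 748 and 751 above the common level at E13.5, 20.8, 21.3 and 15.8 in adult control, 12.5 and 19.1 with Wnt3a, and 3.41, 2.19, 4.87 and 5.05 with MS-275. All groups fell in that order without overlap between E13.5, adult control and MS-275, at -5.24 ± 0.36 for adult control over E13.5 (adjusted p 3.92e-07) and -2.09 ± 0.34 for MS-275 over adult control (adjusted p 0.000383), where the deposited values gave -1.23 ± 0.25 and -2.40 ± 0.23. Pcdhgb6 divided the libraries by set: it held 319, 320.0 and 352 at E13.5, but 10.4, 0 and 487 in adult control, 2.78 and 611 with Wnt3a, and 0, 82.0, 1.62 and 94.7 with MS-275. The high adult libraries were those of set 2 in every group, and Pcdhgb6 was named after its values were seen. Pcdhga1 was the lowest gene itself at E13.5 and so 0 by construction there, against 23.4, 15.2 and 223 in adult control.

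Above the common level, 17 of the 21 gamma genes were lower in adult control than at E13.5 and Pcdhgb1 was higher. Pcdhga1 was left out of these calls, because its value at E13.5 is 0 by construction. With MS-275, 14 were lower than in adult control and none was higher, and with Wnt3a none was called. In that fit 52.2% of all genes were called for adult control over E13.5, and 37.3% of these calls were higher. For MS-275 over adult control 53.0% of all genes were called, 57.1% of them higher, and with Wnt3a 0%. Pcdhga9, among the 14, equalled the lowest gamma gene in every MS-275 library, so its value there is 0 by construction. Pcdhga8 and Pcdhgb4, also among the 14, were at 0 in most MS-275 libraries for the same reason. The genes lower in adult control than at E13.5 included Pcdhga11, at 372, 347 and 417 at E13.5 and 1.02 to 4.34 in adult control.

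**Figure D5:**
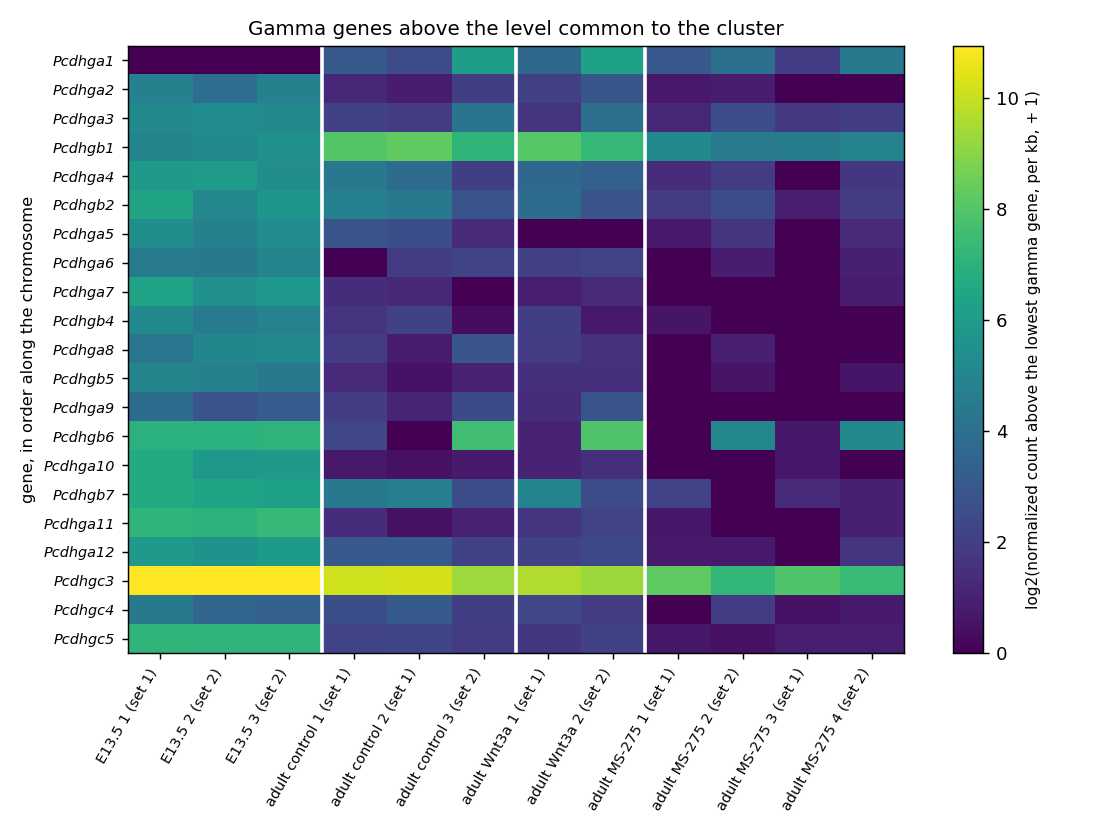
Normalized count above the lowest gamma gene, per kb of the bases that no other gamma gene holds, on a log2(value + 1) colour scale. The 21 gamma genes are in chromosome order (vertical) and the 12 libraries are horizontal. Pcdhgc3 is the brightest in every library, Pcdhgb1 is bright in adult control and Wnt3a libraries, and Pcdhgb6 is bright at E13.5 and in adult libraries of set 2.

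Wnt3a compared to adult control called no protocadherin among the 65 tested, and 0% of all genes tested. Neither edgeR nor DESeq2 called a member, and 3 members had an unadjusted p under 0.05, which were Pcdh7, Pcdh1 and Pcdh20. Their log2 fold changes were 2.07 ± 0.63 (adjusted p 0.575), -0.57 ± 0.25 (adjusted p 0.584) and 1.90 ± 0.84 (adjusted p 0.584). The medians were 0.36 for alpha, -0.36 for beta, -0.34 for gamma and 0.60 for non-clustered genes. With 2 Wnt3a libraries of different sets, leaving out 1 library changed these results. Without adult control 3, Pcdh7 (2.89, adjusted p 0.00238) was called higher and Pcdh1 (-0.84, adjusted p 0.0197) lower. In that fit 9.43% of all genes were called. Without Wnt3a 2, which leaves 1 Wnt3a library, the log2 fold change was 2.39 for Pcdh9 and 3.50 for Pcdh20.

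MS-275 compared to E13.5 called 5 protocadherins higher and 43 lower of 65, or 73.8%, against 63.3% of all genes, with 27.2% higher and 36.1% lower. With 1 value each for the alpha and gamma clusters, whose genes share reads, 16 of 33 tested values were called, 5 higher and 11 lower. That share was below the 63.2% of all genes called in that fit. All 13 alpha and 21 gamma genes were lower, with median log2 fold changes of -5.47 and -3.52, as were Pcdh7, Pcdh8, Pcdh10, Pcdh17 and Pcdh18 among the non-clustered and Pcdhb2, Pcdhb3, Pcdhb17 and Pcdhb19 among the beta genes. Higher were Pcdh12 at 5.94 ± 0.88 (adjusted p 0.000141), Pcdhb11 at 1.83 ± 0.58 (adjusted p 0.0164), Pcdhb16, Pcdhb21 and Pcdh1, the last by only 0.52 ± 0.21 (adjusted p 0.0438). Pcdh9, Pcdh15, Pcdh19 and Pcdh20 were not called, although Pcdh9 was lower without Wnt3a 2 (-1.03, adjusted p 0.017). The call of Pcdh1 was lost on leaving out any 1 of 9 of the 12 libraries (all but adult control 2 and 3 and MS-275 2, adjusted p of up to 0.162), and that of Pcdhb17 on leaving out any 1 of 7 (E13.5 1, 2 and 3, adult control 1 and 2, MS-275 1 and 3, up to 0.103). The calls of Pcdhb11 (adjusted p 0.0712) and Pcdhb21 were lost without E13.5 1, that of Pcdhb21 also without E13.5 2, and that of Pcdhb2 without any 1 of the E13.5 libraries or MS-275 1 or 3. Under quantile normalization 55.6% of the calls over all genes were higher instead of 43.0%, 10 protocadherins were higher and 39 lower, and the median of the beta genes was 0.59 in place of -0.63.

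Genes that work with the protocadherins were counted from lists of relatives, of regulators of the clustered promoters and of cleavage enzymes and effectors. Of 14 tested relatives, 10 were lower and 1 higher in adult control than at E13.5, which is 78.6% called beside 52.3% of all genes tested. Pcdh11x, the X-linked protocadherin outside the symbol rule, had no read in adult control and 140 ± 4.75 (SD, n = 3) at E13.5, the calsyntenin Clstn2 none and 110 ± 53.7, and Celsr2, a relative with a receptor-type membrane part, 0.657 ± 1.14 and 2329 ± 508. With MS-275, 7 relatives were higher and 4 lower than in adult control, again 78.6%, beside 53.0% of all genes. Fat4, the partner of Dchs1 in planar polarity, fell from 3384 ± 205 to 805 ± 270 (-2.13 ± 0.25, adjusted p 5.23e-05), while Clstn3 rose from 8.29 ± 4.86 to 67.3 ± 3.54 (3.00 ± 0.39). Dchs2 went from no read in adult control to 7.17 ± 2.44.

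Of 17 regulators, 4 were lower and none higher in adult control than at E13.5, or 23.5% called, below the 52.3% of all genes. These included Dnmt3a, which methylates new sites of DNA (725 ± 416 against 4203 ± 507, -2.67 ± 0.43), the cohesin subunit Rad21 (-0.45 ± 0.12) and the histone methyltransferase Setdb1 (-0.59 ± 0.20). MS-275 over adult control gave 2 higher and 4 lower, or 35.3% called, below the 53.0% of all genes. The cohesin subunit Smc3 rose from 3284 ± 2330 to 14234 ± 4618 (2.28 ± 0.39), while Ctcf (-0.71 ± 0.13, adjusted p 0.000966) and the zinc finger protein Wiz (-0.95 ± 0.17) fell.

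Of 20 cleavage enzymes and effectors, 4 were higher and 6 lower in adult control than at E13.5, and 6 higher and 9 lower with MS-275 than in adult control. The share called was 50%, near the 52.3% of all genes, in the former and 75.0%, beside 53.0%, in the latter. Cyfip2, a subunit of the WAVE complex that protocadherin tails recruit, stood at 4984 ± 213 at E13.5, 1.24 ± 1.08 in adult control and 652 ± 110 with MS-275. Ret, a receptor kinase found in complexes with alpha and gamma protocadherins, stood at 57.2 ± 11.2, 0 and 18 ± 6.44 in the same groups. Taok2, a kinase that binds Pcdh8, was higher in adult control than at E13.5 (1.83 ± 0.16), and Ncstn, a part of the gamma-secretase that cleaves protocadherins, fell with MS-275 (-1.44 ± 0.16). MS-275 over E13.5 gave 1 higher and 11 lower relatives, 1 higher and 7 lower regulators and 5 higher and 9 lower cleavage enzymes and effectors, with 63.3% of all genes called, and Wnt3a called none in any list.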

How the data were processed

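The authors prepared the libraries from mRNA (KAPA kit), aligned read pairs to mm10 with STAR after FastQC and cutadapt, and counted reads per gene (GENCODE M23, protein-coding only). The methods name in-house scripts for counting and the processing notes featureCounts. Tool versions and strand setting: not given in the sources used here. Deposited signal values are normalized counts: the authors divided each library's counts by a DESeq2 size factor. Of 21638 names, 26 that a spreadsheet had turned into dates and 1 with a missing value were left out. Multiplied back, 100.0% of values lay within 0.01 reads of whole reads.

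Values were taken as log2(normalized count + 1), and limma 3.58.1 (R 4.3.3, with trend and robust options) was run on the 12 libraries in 1 fit with group as the only factor. The filter asked for 10 or more in 2 libraries. Benjamini-Hochberg adjustment ran over all genes tested in a comparison, with 0.05 as the threshold. The tests were tried on simulated data. Positions and exons are from GENCODE M21, and lists of markers, relatives, regulators and effectors were counted by direction only.

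Values in every library are given for the non-clustered genes, the 3 highest genes of each cluster and the called clustered genes with the largest change in each direction, with the alpha genes as 1 value. Members and lists were chosen with earlier results of these data known. Alternatives were other pseudocounts, filters, scalings and thresholds, blocks, edgeR 4.0.16 and DESeq2 1.42.0 on recovered reads, and leaving out each library. Subtracting the lowest gene of a cluster, 1 value per cluster and fits within a library set were chosen after seeing the data. The adult control libraries 1 and 2 (chi-square per gene 10.7), MS-275 2 and 4 (6.97), MS-275 1 and 3 (29.3) and E13.5 2 and 3 (5.07) were far closer than other pairs of their groups (83.6 to 279). If such pairs are not separate cultures, p-values measure technical spread and are too small.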

Additional observations from a re-analysis of the deposited data

Results flagged for a closer look

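Of the 67 protocadherins checked over the 4 MS-275 libraries, Pcdha5 had 1 library far from the rest: MS-275 library 3 held 0 normalized counts, against 4.26, 4.37 and 5.05 in the others. Chance gives such a gap in about 1 of 20 genes. Pcdha5 had 5 reads in MS-275 library 1, where the other 12 alpha genes had 4, and in the other MS-275 libraries its value was that of the lowest alpha gene.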

How the results depend on the processing

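With 1 value in place of the genes of the alpha and of the gamma cluster, 26 of 33 tested values were called for adult control over E13.5 (11 higher, 15 lower). There were 16 calls for MS-275 over adult control and 16 for MS-275 over E13.5. The counts are smaller because the genes of each cluster, which share reads, then counted once. In these fits 52.1%, 53.0% and 63.2% of all genes were called, in that order. With library set 1 only, 38 of 42 tested members were called for adult control over E13.5, with 64.1% of all genes called, and 26 of 42 for Wnt3a over adult control, with 38.4%. This set has 1 E13.5 and 1 Wnt3a library, each assumed to vary like the other groups, and the cause was not tested. Leaving out 1 library gave 51 to 59 calls for adult control over E13.5, 34 to 46 for MS-275 over adult control, 0 to 2 for Wnt3a and 43 to 50 for MS-275 over E13.5. The share of all genes called was then 43.0% to 56.6%, 43.4% to 55.8%, 0% to 9.43% and 55.2% to 67.5%. The 46 calls came without MS-275 3, where 33 alpha and gamma genes were called instead of 21. The added ones were alpha genes that share the same few reads. Other settings stayed within 1.5 times the count, as with edgeR (54, 35, 0 and 46 calls in that order) and DESeq2 (55, 37, 0 and 47).

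Of 53 results of single genes under all alternatives, 1485 values kept direction and call, 66 lost the call and 2 changed sign. The latter were Pcdhgb1 for adult control over E13.5 with the lowest gamma gene subtracted (2.58), where the common level is removed by construction, and Pcdhb17 for MS-275 over E13.5 under quantile normalization (0.32), where the cause was not tested. Most often lost were the calls of Pcdhb11 for MS-275 over adult control (14 of 29) and of Pcdh1 for MS-275 over E13.5 (13 of 30). Libraries with the same replicate number did not all deviate together (correlations of -0.44 to 0.44 over 15 pairs). Those numbered 1, which all lie in set 1, correlated positively in every pair (0.012 to 0.441). Pairs with other numbers gave values of both signs. With the replicate block the counts of calls were 59, 35, 0 and 47, and with the library set as a block 59, 39, 0 and 50. The library set block, made from these same data, called 58.4%, 60.1%, 0% and 69.9% of all genes. Without a block the shares were 52.3%, 53.0%, 0% and 63.3%. Depth limits the alpha genes and Pcdhb2 to Pcdhb12 in adult ECs, where most values rest on a few reads.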
